A study of Mus musculus with 8 samples.

Results

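The CD300 genes described here were Cd300a, Cd300lf, Cd300lb, Cd300ld, Cd300c2, Cd300e, Cd300ld5 and Cd300lg, 8 of the 51789 genes of the count table and 8 of its 12 CD300 genes. They were chosen by name as the CD300 myeloid receptor family, and the values of all 8 are given in every library. Cd300a was known to be lower with sEVHYP than with sEVNORM when the family was proposed, so the values of the members in that comparison are a description, and nothing is read from their counts there. The remaining CD300 genes of the table, Cd300c, Cd300ld2, Cd300ld3 and Cd300ld4, were used for comparison. The reason for leaving them out of the family was not given.

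CD300 proteins are cell surface receptors with an immunoglobulin-like domain that bind lipids, among them the phosphatidylserine and phosphatidylethanolamine exposed on dying cells and on extracellular vesicles. Inhibitory members (Cd300a, Cd300lf) carry tyrosine motifs in a long cytoplasmic tail that recruit phosphatases such as Ptpn6 and Inpp5d, whereas activating members (Cd300lb, Cd300ld, Cd300c2, Cd300e) have short tails and signal through adapters such as Tyrobp and Fcer1g. Most members are found on macrophages, monocytes, dendritic cells, neutrophils and mast cells, and Cd300lg, also called nepmucin, is found on capillary endothelium.

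The mice were female C57BL/6, and their abdominal mammary glands received a single injection of small extracellular vesicles (sEVs). The vesicles came from AT3 cells, a line from a mouse mammary adenocarcinoma that metastasizes, kept in normoxia (sEVNORM) or in hypoxia (sEVHYP), or were prepared from medium that had held no cells (sEVCTRL). Whole glands were sampled 6 weeks later, and polyadenylated RNA was sequenced from 3 glands with sEVCTRL, 3 with sEVNORM and 2 with sEVHYP. The comparisons ask which transcripts differ after vesicles from hypoxic tumor cells, against vesicles from normoxic tumor cells and against the control preparation.

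Total counts were 18194996 to 24622569 per library, and a count of 0 allowed at most 3 counts, or 0.121 to 0.164 CPM (counts relative to the TMM-scaled total of their library), a limit for counting error only. Summed skeletal muscle markers ranged from 10.4 to 12277 CPM, the macrophage-defining Adgre1, Csf1r and Cd68 and the endothelium-defining Pecam1 and Cdh5 were present in all 8 libraries, and the neutrophil gene Ly6g had 0 CPM in both sEVHYP libraries and at most 0.355 CPM elsewhere. With edgeR's quasi-likelihood test, 0 of 17858 genes tested passed an adjusted P of 0.05 in any comparison, and an unadjusted P of 0.05, the threshold of the study and the threshold meant here unless stated, was passed by 438 genes for sEVHYP against sEVCTRL, 706 for sEVHYP against sEVNORM and 290 for sEVNORM against sEVCTRL. DESeq2 on all libraries called 4, 16 and 2 genes after adjustment, and DESeq2 on only the groups compared called 14, 83 and 3. For every gene tested and named here, edgeR gave an adjusted P of 0.999 or more. In whole glands, fewer cells of a type and less RNA per cell cannot be told apart.

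Apart from Cd300lg (chr11:102041509-102055620, plus strand, GRCm38), the members lay in a cluster on the same chromosome, from Cd300a (chr11:114890041-114904654, plus strand) to Cd300lf (chr11:115116214-115133992, minus strand). No exon of a CD300 gene overlapped an exon of another gene, although the span of Cd300lf lay within that of Rab37 on the opposite strand. Cd300ld5 (chr11:115031486-115037769, minus strand) differed from the other members in having no sequence of its own. Its transcript and those of its neighbors Cd300ld4 and Cd300ld3 were each 852 bases long, Cd300ld4 differed from it at 1 base and Cd300ld3 at 9, and at every position Cd300ld5 matched at least 1 of the others. The coding sequences show this, first for transcript bases 115 to 174, which open the coding part, then for bases 531 to 590, around the base that sets Cd300ld4 apart. Capitals mark the positions at which the 3 genes differ.
Cd300ld5, bases 115 to 174: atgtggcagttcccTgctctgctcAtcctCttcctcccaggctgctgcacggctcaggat
Cd300ld4, bases 115 to 174: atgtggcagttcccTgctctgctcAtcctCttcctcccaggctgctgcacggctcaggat
Cd300ld3, bases 115 to 174: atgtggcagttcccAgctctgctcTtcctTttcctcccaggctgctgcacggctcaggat
Cd300ld5, bases 531 to 590: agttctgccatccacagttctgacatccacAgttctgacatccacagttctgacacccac
Cd300ld4, bases 531 to 590: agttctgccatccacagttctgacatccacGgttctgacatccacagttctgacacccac
Cd300ld3, bases 531 to 590: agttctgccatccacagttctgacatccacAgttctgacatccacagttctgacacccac

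All 803 stretches of 50 bases in the Cd300ld5 transcript occurred in another CD300 gene, and so did 100% of its stretches of 100 and of 150 bases. Cd300ld4 shared 93.8% and Cd300ld3 82.1% of their 50-base stretches with another CD300 gene. Among the other members the share was at most 7.16%, in Cd300c2, and it was 0% in Cd300lg, Cd300lb and Cd300e. The counts of Cd300ld5 therefore depended on how RSEM, the program that made the counts, divided reads among near-identical genes, and they are uncertain. Those of the other 7 members rested mainly on sequence of their own.

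Upstream sequence is printed for Cd300a and Cd300e, whose sEVHYP libraries lay below the rest, and for Cd300ld5 and Cd300ld3, which share most of their transcript. RefSeq promoter windows (GRCm38.p6, 250 bases before to 50 after the start) were found for 7 of the 8 members and 10 of the 12 CD300 genes. The letters searched on both strands were GAGGAA (the core bound by PU.1, a myeloid factor), TTGCNNAA (C/EBP), and ACGTG and GCGTG (cores bound by HIF). Capitals mark matches, and only bases before the annotated gene start are shown.
Cd300a, chr11:114889791-114890040, plus strand: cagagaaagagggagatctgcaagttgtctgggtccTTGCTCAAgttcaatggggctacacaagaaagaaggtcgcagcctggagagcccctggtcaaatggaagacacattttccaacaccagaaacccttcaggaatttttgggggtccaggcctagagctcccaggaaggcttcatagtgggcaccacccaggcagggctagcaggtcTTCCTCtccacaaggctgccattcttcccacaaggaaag
Cd300e, chr11:115062178-115062289, minus strand: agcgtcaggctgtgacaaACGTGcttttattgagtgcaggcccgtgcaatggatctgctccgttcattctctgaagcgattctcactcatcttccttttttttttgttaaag
Cd300ld5, chr11:115037770-115037940, minus strand: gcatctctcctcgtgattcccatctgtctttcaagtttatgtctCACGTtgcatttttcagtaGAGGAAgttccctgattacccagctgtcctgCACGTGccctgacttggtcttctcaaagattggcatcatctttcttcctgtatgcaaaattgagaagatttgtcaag
Cd300ld3, chr11:115048410-115048580, minus strand: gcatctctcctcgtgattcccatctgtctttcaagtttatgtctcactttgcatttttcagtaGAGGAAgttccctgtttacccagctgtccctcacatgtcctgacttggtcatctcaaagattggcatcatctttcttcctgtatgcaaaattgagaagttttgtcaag

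Over the whole windows, GAGGAA occurred in Cd300a, Cd300ld, Cd300c2, Cd300ld5 and Cd300lf among the members, and in 28.3% of all 32851 RefSeq promoters. TTGCNNAA occurred only in Cd300a among the 10 CD300 genes with a window, against 10.8% of all promoters. ACGTG matched at 3 positions in Cd300ld5 and in Cd300ld4, whose windows were identical over 300 bases. Among these, the site CACGTG reads the same on both strands and was counted once for each strand. ACGTG matched at 1 position in Cd300e and at 0 in Cd300ld3, whose window was 95% identical to that of Cd300ld5. This core occurred in 19.6% of all promoters. GCGTG matched only in Cd300lb, against 32.4% of all promoters. These matches describe letters and not binding.

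Levels of different genes were compared as RPKM (CPM per 1000 bases of exon). Cd300ld5 had the highest mean over the 8 libraries, 28.5 ± 12.9 RPKM (SD, n = 8), followed by Cd300lg at 19.8 ± 5.38 RPKM, although these ranges overlapped. This order held in 6 of 8 libraries and in the means of 2 of 3 groups, and with sEVHYP the mean of Cd300lg, 17.4 RPKM, was above that of Cd300ld5, 15.3 RPKM. Cd300c2 at 6.90 ± 1.82 RPKM and Cd300ld at 6.48 ± 1.37 RPKM came next and could not be ordered, since Cd300c2 was the higher in 4 of 8 libraries. The 4 lowest were Cd300a at 1.96 ± 0.437 RPKM, Cd300lb at 1.33 ± 0.341 RPKM, Cd300lf at 0.977 ± 0.320 RPKM and Cd300e at 0.837 ± 0.348 RPKM, all with overlapping neighbors. In the order, ranges separated only Cd300lg from Cd300c2 and Cd300ld from Cd300a. Of the CD300 genes outside the family as chosen, Cd300ld3 at 22.3 RPKM and Cd300ld4 at 22.2 RPKM lay near Cd300ld5, and Cd300ld2 at 1.11 RPKM and Cd300c at 0.828 RPKM lay among the lowest.

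**Figure D1:**
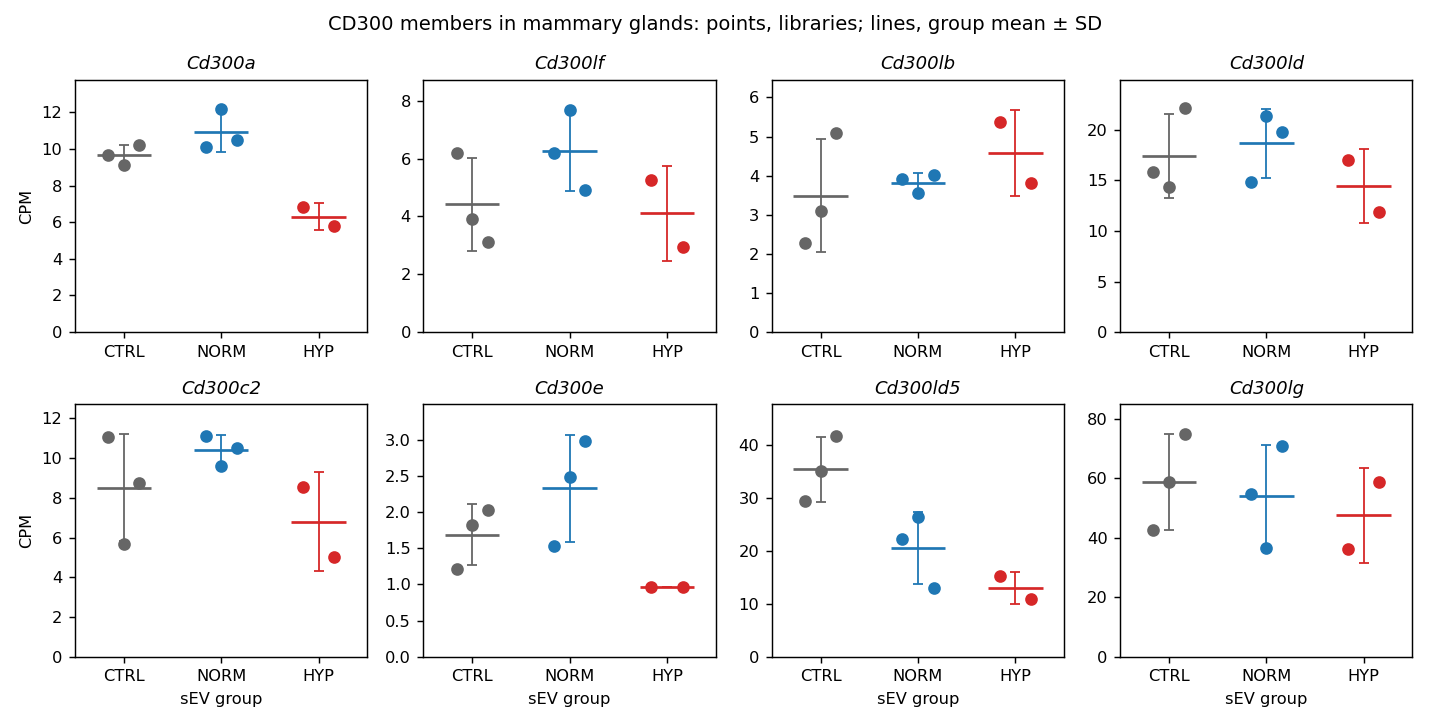
CPM of the 8 CD300 members in each library of the sEVCTRL, sEVNORM and sEVHYP groups (n = 3, 3 and 2). Points are libraries, horizontal lines are group means and vertical bars are SD, with a separate axis from 0 for each gene. Both sEVHYP points lie below all others for Cd300a and Cd300e, the sEVHYP and sEVNORM points of Cd300ld5 lie below all sEVCTRL points, and the groups overlap for Cd300lf, Cd300lb, Cd300ld and Cd300lg.

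Cd300a, an inhibitory receptor for aminophospholipids on myeloid and mast cells, was lowest in the glands given sEVHYP. Its level was 9.65, 9.12 and 10.2 CPM with sEVCTRL, 10.1, 12.2 and 10.5 CPM with sEVNORM, and 6.83 and 5.78 CPM with sEVHYP. These values rested on 187 to 275 counts per library in the first 2 groups and on 149 and 108 counts with sEVHYP. Both sEVHYP libraries lay below the other 6, while the sEVCTRL and sEVNORM ranges overlapped. Against sEVCTRL the level with sEVHYP was 0.653 times as high, a log2 fold change of -0.62 (SE 0.21, past the threshold). Against sEVNORM the log2 fold change was -0.79 (SE 0.21), or 0.577 times, and sEVNORM differed from sEVCTRL by 0.18 (SE 0.18, not past the threshold). The sEVHYP libraries serve in both comparisons, so the lower level against sEVCTRL is not independent of the one known beforehand. Without sEVHYP replicate 2 the log2 fold change against sEVCTRL was -0.51 and did not pass the threshold, with the remaining library assumed to vary like those of the other groups.

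Cd300lf, the other inhibitory member and the receptor of murine norovirus, had 6.20, 3.92 and 3.12 CPM with sEVCTRL, 6.19, 7.67 and 4.92 CPM with sEVNORM, and 5.27 and 2.94 CPM with sEVHYP. All 3 groups overlapped, and sEVCTRL libraries alone spanned 3.12 to 6.20 CPM. The log2 fold change of sEVHYP was -0.10 against sEVCTRL, with a 95% interval of -0.98 to 0.77 (not past the threshold), and -0.61 against sEVNORM. The pair of inhibitory members thus differed in spread, with a biological coefficient of variation of 19.9% for Cd300a and 31.8% for Cd300lf.

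Among the activating members, Cd300e, a receptor of monocytes that pairs with Tyrobp, was the least abundant per length and was lowest with sEVHYP. It had 1.22, 1.82 and 2.02 CPM with sEVCTRL, 1.53, 2.48 and 2.98 CPM with sEVNORM, and 0.962 and 0.963 CPM with sEVHYP. The sEVHYP values, from 21 and 18 counts, lay below all 6 others, which rested on 24 to 63 counts. The log2 fold change against sEVCTRL was -0.81 (SE 0.43, not past the threshold), with a 95% interval of -1.79 to 0.17, and that against sEVNORM was -1.27 (SE 0.43). Counting error alone gives Cd300e a coefficient of variation of 16.4%, and that over the 8 libraries was 41.6%.

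Cd300c2, an activating receptor whose coding sequence was 83.3% identical to that of Cd300a, had 11.1, 5.70 and 8.75 CPM with sEVCTRL, 11.1, 9.62 and 10.5 CPM with sEVNORM, and 8.57 and 5.03 CPM with sEVHYP. The sEVHYP values lay below those with sEVNORM and within or below those with sEVCTRL. Its log2 fold change was -0.32 (SE 0.33, not past the threshold) against sEVCTRL and -0.61 (SE 0.33) against sEVNORM. Cd300ld, which signals through Fcer1g, had 15.8, 14.3 and 22.1 CPM with sEVCTRL, 14.8, 21.3 and 19.8 CPM with sEVNORM, and 17.0 and 11.9 CPM with sEVHYP. The groups overlapped, with a log2 fold change of -0.27 (SE 0.27, not past the threshold) against sEVCTRL and -0.37 against sEVNORM.

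Cd300lb, an activating receptor that pairs with Tyrobp, was the member with positive log2 fold changes in all 3 comparisons, none of which passed a test. Its level was 2.29, 3.10 and 5.09 CPM with sEVCTRL, 3.90, 3.55 and 4.02 CPM with sEVNORM, and 5.36 and 3.80 CPM with sEVHYP. The control libraries spanned more than the gap between the groups. Its log2 fold change was 0.39 (SE 0.36, not past the threshold) for sEVHYP and 0.13 (SE 0.33, not past the threshold) for sEVNORM, each against sEVCTRL, and 0.26 between the tumor vesicles. Without sEVCTRL replicate 3 the first was 0.76 and passed the threshold, and with the level of the mast cell markers in the model it was 1.06 and passed. That marker level was added after seeing the data and cannot be told apart from the sEVNORM group, so nothing is read from this pass. The same model gave Cd300lb -1.50 for sEVNORM against sEVCTRL.

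Cd300ld5, the paralog with no sequence of its own, had the smallest P of the members and the ranking it held among all genes was 5 of 17858 for sEVHYP against sEVCTRL. It had 29.5, 35.1 and 41.8 CPM with sEVCTRL, 22.2, 26.4 and 13.0 CPM with sEVNORM, and 15.2 and 10.9 CPM with sEVHYP. Every library given tumor vesicles lay below every control library, and the sEVNORM and sEVHYP ranges overlapped. The log2 fold change against sEVCTRL was -1.44 (SE 0.32, past the threshold) for sEVHYP, or 0.369 times, and -0.78 (SE 0.27, past the threshold) for sEVNORM. DESeq2 gave sEVHYP against sEVCTRL an adjusted P of 0.0495 on all libraries and 0.00238 on only the groups compared. Between sEVHYP and sEVNORM the log2 fold change was -0.65 (SE 0.31).

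How the counts were divided among the near-identical genes differed between libraries. Of the counts given to Cd300ld2, Cd300ld3, Cd300ld4 and Cd300ld5 together, Cd300ld5 held 53.7%, 51.7% and 49.4% with sEVCTRL, 53.7%, 33.0% and 16.8% with sEVNORM, and 29.3% and 22.9% with sEVHYP. Cd300ld3 held 12.7%, 17.5% and 19.0% with sEVCTRL, 22.4%, 31.1% and 49.8% with sEVNORM, and 40.5% and 48.8% with sEVHYP. The share of Cd300ld3 was thus larger in every library given tumor vesicles than in any control library, and that of Cd300ld4 was 23.5% to 33.6% in all 8. The 4 genes summed to 54.8, 67.8 and 84.5 CPM with sEVCTRL, 41.4, 80.0 and 77.2 CPM with sEVNORM, and 51.9 and 47.6 CPM with sEVHYP. As 1 gene, the sum had a log2 fold change of -0.47 (SE 0.29, not past the threshold) for sEVHYP and -0.06 (SE 0.26, not past the threshold) for sEVNORM, each against sEVCTRL. Cd300ld4 and Cd300ld5, which differ at 1 base, summed to a log2 fold change of -1.09 (SE 0.26, past the threshold) and -0.45 (SE 0.22, not past the threshold). The call for Cd300ld5 was therefore not kept by the sum of all 4 genes in either comparison, nor by the sum of both near-identical genes for sEVNORM. Whether the transcripts or the division of reads differed between groups was not tested.

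**Figure D2:**
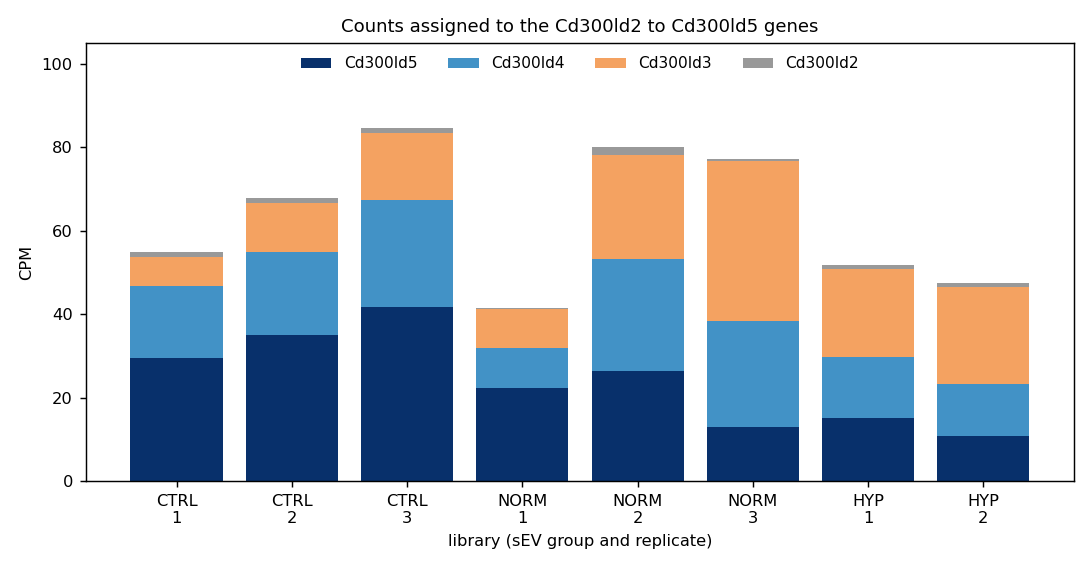
CPM given to Cd300ld5, Cd300ld4, Cd300ld3 and Cd300ld2 in each library, stacked, with the library's sEV group and replicate on the horizontal axis. Bar heights are the summed CPM, 41.4 to 84.5, and the Cd300ld5 part is largest in the 3 sEVCTRL libraries while the Cd300ld3 part is smallest there in share.

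Cd300lg, the endothelial member, overlapped between all groups. It had 42.6, 58.6 and 75.0 CPM with sEVCTRL, 54.7, 36.7 and 71.1 CPM with sEVNORM, and 36.3 and 58.8 CPM with sEVHYP. With 793 to 1502 counts per library, counting error would give a coefficient of variation of 2.97%, against 27.2% over the 8 libraries. The log2 fold change against sEVCTRL was -0.31 (SE 0.33, not past the threshold) for sEVHYP, with a 95% interval of -1.06 to 0.45, and -0.12 (SE 0.30, not past the threshold) for sEVNORM. Between sEVHYP and sEVNORM it was -0.19.

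The spread of Cd300lg followed that of endothelial and adipocyte genes rather than that of macrophage genes. There were 40 relations of a member to the mean log2 CPM of a marker list (8 members, 5 lists, 8 libraries each). By Pearson's r, 2 passed an adjusted P of 0.05, both for Cd300lg. By Spearman's rho 2 passed, Cd300lg with the white adipocyte markers and Cd300a with the mast cell markers. The sEVNORM libraries stood apart in the mast cell markers and Cd300a was known to differ between groups, so nothing is read from its pass. For Cd300lg with the endothelium markers, r was 0.910 (exact permutation P = 0.00241, adjusted P = 0.0481) and Spearman's rho 0.881 (exact permutation P = 0.00724, adjusted P = 0.0612). Without the 2 libraries farthest from the median r was 0.749. With the white adipocyte markers r was 0.933 (exact permutation P = 0.000967, adjusted P = 0.0387) and rho 0.929 (exact permutation P = 0.00223, adjusted P = 0.0446), and r was 0.904 without the farthest 2. Deviations from the group means gave r = 0.978 and 0.965, so the relation was also present within groups. With the macrophage markers r was 0.190 (exact permutation P = 0.638, adjusted P = 0.947) and rho -0.10 (exact permutation P = 0.840, adjusted P = 0.954), with r = -0.30 without the farthest 2. No other member passed an adjusted P of 0.05 with the macrophage markers, with r from -0.22 (Cd300ld5) to 0.468 (Cd300c2). The weak relation to macrophage markers therefore does not set Cd300lg apart from the other members. With the endothelium and white adipocyte markers, Cd300lf had r of the opposite sign, -0.80 and -0.81, neither past an adjusted P of 0.05. Its deviations from the group means gave r = -0.95 and -0.90. Gpihbp1, the capillary protein that carries lipoprotein lipase, was highest in sEVCTRL replicate 3 at 80.4 CPM, as was Cd300lg. It was lowest in sEVNORM replicate 2 at 25.7 CPM and sEVHYP replicate 1 at 27.7 CPM, also the lowest libraries for Cd300lg. Endothelial genes did not all do so. Cdh5 was highest in sEVCTRL replicate 3 at 181 CPM and lowest in sEVNORM replicate 2 at 92.5 CPM. Pecam1, also highest in sEVCTRL replicate 3, had 273 CPM in sEVNORM replicate 2 and was lowest in sEVHYP replicate 2 at 215 CPM. Cd300lg had 36.7 and 58.8 CPM in those libraries.

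Cd300a and the summed mast cell markers were both lowest with sEVHYP, but to unlike degrees. For sEVHYP against sEVCTRL the mast cell markers had a median log2 fold change of -0.13, and Cd300a had -0.62. The 8 mast cell markers, all above 0, summed to 285 to 324 CPM with sEVCTRL, 413 to 443 CPM with sEVNORM and 267 to 272 CPM with sEVHYP, so that no group overlapped another. Of these markers 4 rose with sEVNORM against sEVCTRL and 5 fell with sEVHYP against sEVNORM, and against sEVCTRL with sEVHYP 0 passed by edgeR or DESeq2. The chymase gene Cma1 changed by 0.58 (SE 0.12, past the threshold) and the carboxypeptidase gene Cpa3 by 0.57 (SE 0.13, past the threshold) with sEVNORM against sEVCTRL. The order of the groups was the same for Cd300a, highest with sEVNORM and lowest with sEVHYP, although its sEVNORM and sEVCTRL ranges overlapped. This order was not particular to the mast cell markers. Median log2 fold changes against sEVCTRL, with sEVNORM and then sEVHYP, were 1.00 and -0.50 for neutrophil and 0.33 and -0.07 for dendritic cell markers. They were 0.09 and -0.06 for macrophage, 0.10 and -0.55 for B and plasma cell, and 0.09 and -0.24 for T and NK cell markers. Monocyte markers had 0.31 and 0.06. Because the sEVNORM libraries form a cluster of their own in the mast cell markers, nothing is read from a correlation over all libraries. Deviations from the group means had r = 0.756 (n = 8). With the neutrophil markers the deviations of Cd300a had r = 0.811, so within groups the relation was not particular to the mast cell markers. With the level of the mast cell markers in the model, Cd300a changed by -0.43 (not past the threshold) for sEVHYP against sEVCTRL and by -0.09 against sEVNORM. Since the marker level separates sEVNORM from both other groups, the marker level and the sEVNORM group cannot be told apart.

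**Figure D3:**
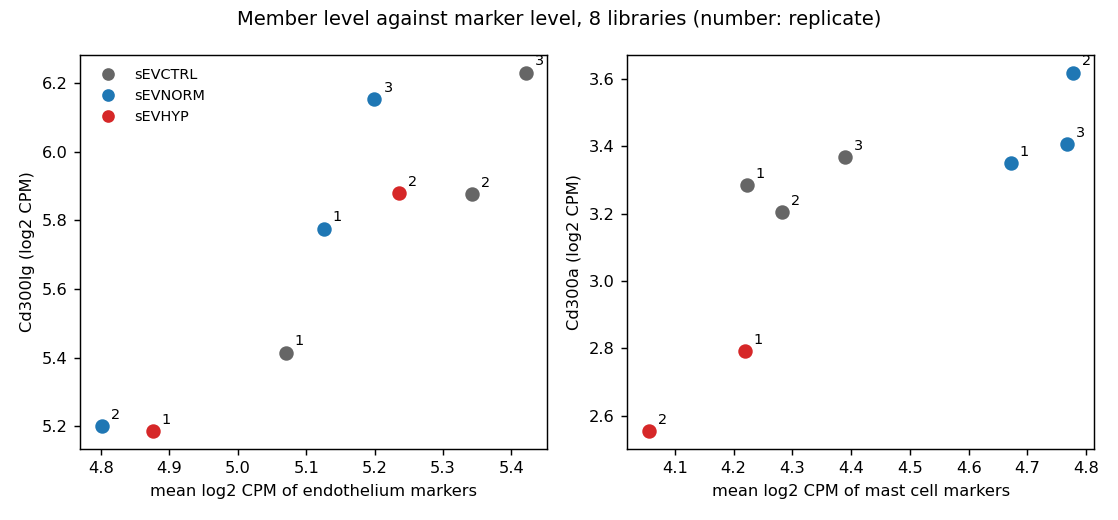
Left, log2 CPM of Cd300lg against the mean log2 CPM of 12 endothelium markers, and right, log2 CPM of Cd300a against that of 8 mast cell markers, in 8 libraries colored by sEV group and numbered by replicate. Cd300lg increases along the endothelium axis with groups intermixed (r = 0.910), and the sEVNORM libraries stand apart on the mast cell axis while both sEVHYP libraries are lowest for Cd300a.

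Summed markers of the other myeloid cells did not separate all 3 groups. With sEVNORM against sEVCTRL, 10 of 11 neutrophil, 10 of 10 dendritic cell, 9 of 10 monocyte and 12 of 15 macrophage markers were above 0. With sEVHYP against sEVNORM, 10, 9, 6 and 13 of them were below 0. The 15 macrophage markers summed to 2123 to 2233 CPM with sEVCTRL, 2306 to 2406 CPM with sEVNORM and 1769 to 2247 CPM with sEVHYP, and 0 of 15 passed by edgeR or DESeq2 for sEVHYP against sEVCTRL. The neutrophil markers summed to 50.8 to 126 CPM with sEVCTRL, 85.0 to 211 CPM with sEVNORM and 59.3 to 83.1 CPM with sEVHYP. Of 11 neutrophil markers tested, 5 fell with sEVHYP against sEVNORM and 3 rose with sEVNORM against sEVCTRL, and sEVNORM replicate 2 held the highest sum. S100a8, an antimicrobial neutrophil protein, was at 27.1, 2.14 and 11.1 CPM with sEVCTRL, 16.7, 55.3 and 11.7 CPM with sEVNORM, and 6.41 and 2.14 CPM with sEVHYP, so that a control library was as low as the lowest with sEVHYP. The 10 monocyte markers went both ways, with 6 above 0 and 4 below 0 and a median of 0.06 for sEVHYP against sEVCTRL. The matrix gene Vcan rose there, at 0.80 (SE 0.18), and against sEVNORM, at 0.47 (SE 0.18), whereas the monocyte surface marker Ly6c2 was at -0.57 (SE 0.37, not past the threshold) against sEVCTRL and fell against sEVNORM, at -1.03 (SE 0.37). Plac8 rose with sEVNORM against sEVCTRL, at 0.71 (SE 0.29). Of 10 dendritic cell markers, 0 passed by edgeR or DESeq2 for sEVHYP against sEVCTRL, and Itgax and Siglech fell against sEVNORM, at -0.49 (SE 0.20) and -0.72 (SE 0.30). The part of these cells in the levels of the members was not tested beyond the models with marker levels.

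**Figure D4:**
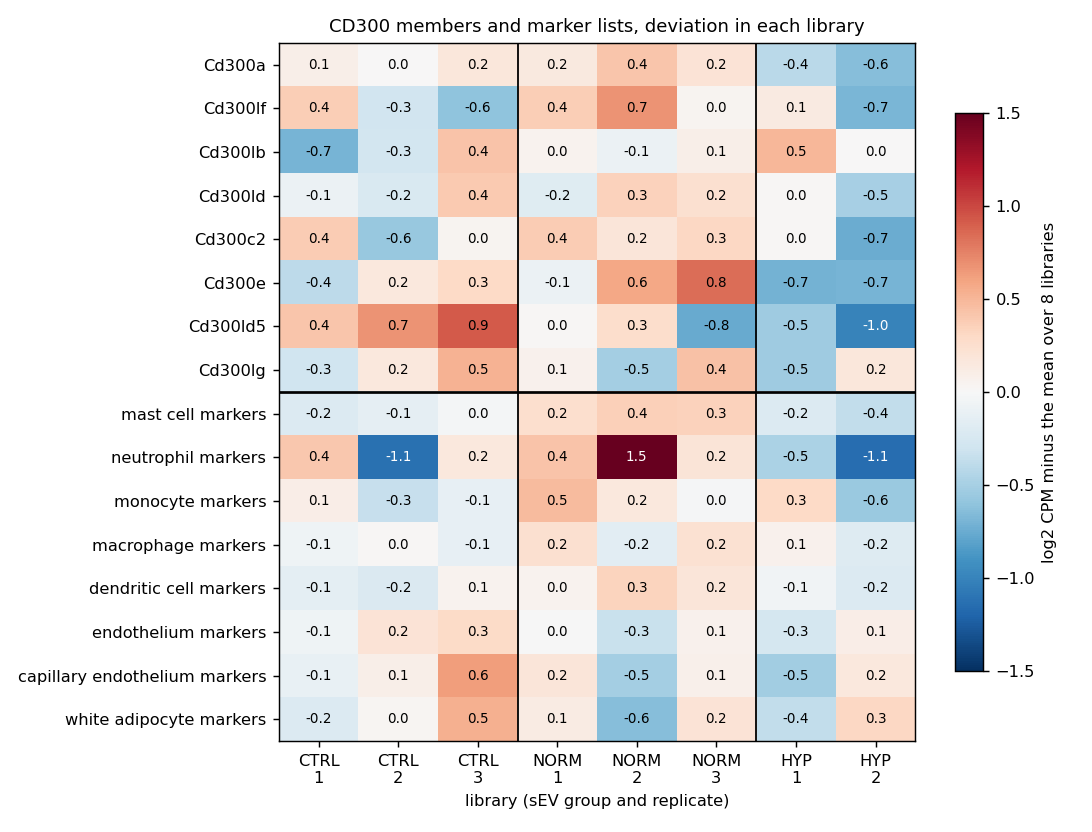
Log2 CPM minus the mean over the 8 libraries, for the 8 members (upper rows, gene by gene) and for the mean of each of 8 marker lists (lower rows), with libraries in columns. Blue is below and red above the mean. Cd300a and Cd300e are blue in both sEVHYP columns, mast cell markers are red in all 3 sEVNORM columns, and Cd300lg resembles the endothelium and white adipocyte rows.

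Taking the members as a group, 2 of 8 fell with sEVHYP against sEVCTRL at an unadjusted P of 0.05 (Cd300a and Cd300ld5), where 2.45% of all genes tested passed, 1.06% lower and 1.39% higher. All 8 had passed the filter on low counts. The fall of Cd300a shares its sEVHYP libraries with the value known beforehand. The call of Cd300ld5 was not kept by the sum of the Cd300ld2 to Cd300ld5 genes. Nothing is therefore read from the counts of members for sEVHYP against sEVCTRL. The median log2 fold change of the members was -0.31, with 7 of 8 below 0, and the median of all genes tested was -0.02. Marker lists of immune cells had medians there of -0.55 (B and plasma cell), -0.50 (neutrophil), -0.24 (T and NK cell), -0.13 (mast cell), -0.07 (dendritic cell), -0.06 (macrophage) and 0.06 (monocyte). All 8 B and plasma cell and all 10 T and NK cell markers were below 0, so this direction was not particular to the members. The groups did not overlap, with sEVHYP lower, for 3 of 8 members (Cd300a, Cd300e and Cd300ld5), against 6.08% of all genes. With sEVHYP higher it was 0 of 8 members, against 6.7%. For sEVNORM against sEVCTRL, 1 of 8 fell (Cd300ld5), where 1.62% of all genes passed, 0.734% lower and 0.89% higher, and the median of the members was 0.15 against -0.00080 for all genes. In that comparison 1 of 8, again Cd300ld5, did not overlap and was lower, against 2.17% of all genes, and 0 of 8 were higher, against 2.69%. With all libraries and no covariate, edgeR passed 0 of 8 members in the higher direction in any comparison.

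For sEVHYP against sEVNORM, which holds the value of Cd300a known beforehand, 2 of 8 passed the threshold and were lower (Cd300a and Cd300e), where 3.95% of all genes passed, 1.7% lower and 2.25% higher. Because Cd300a led to the choice of the family, nothing is read from this count or from those that follow in this comparison. The median of the members was -0.61, with 7 of 8 below 0 and Cd300lb above, and that of all genes was -0.02. The groups did not overlap for 3 of 8 (Cd300a, Cd300c2 and Cd300e), against 10.5% of all genes, and for 0 of 8 with sEVHYP higher, against 12.3%. Both sEVHYP libraries lay below all 6 others for 2 of 8, Cd300a and Cd300e, against 2.76% of all genes. The 3 comparisons share libraries, and these values are not independent of each other.

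**Figure D5:**
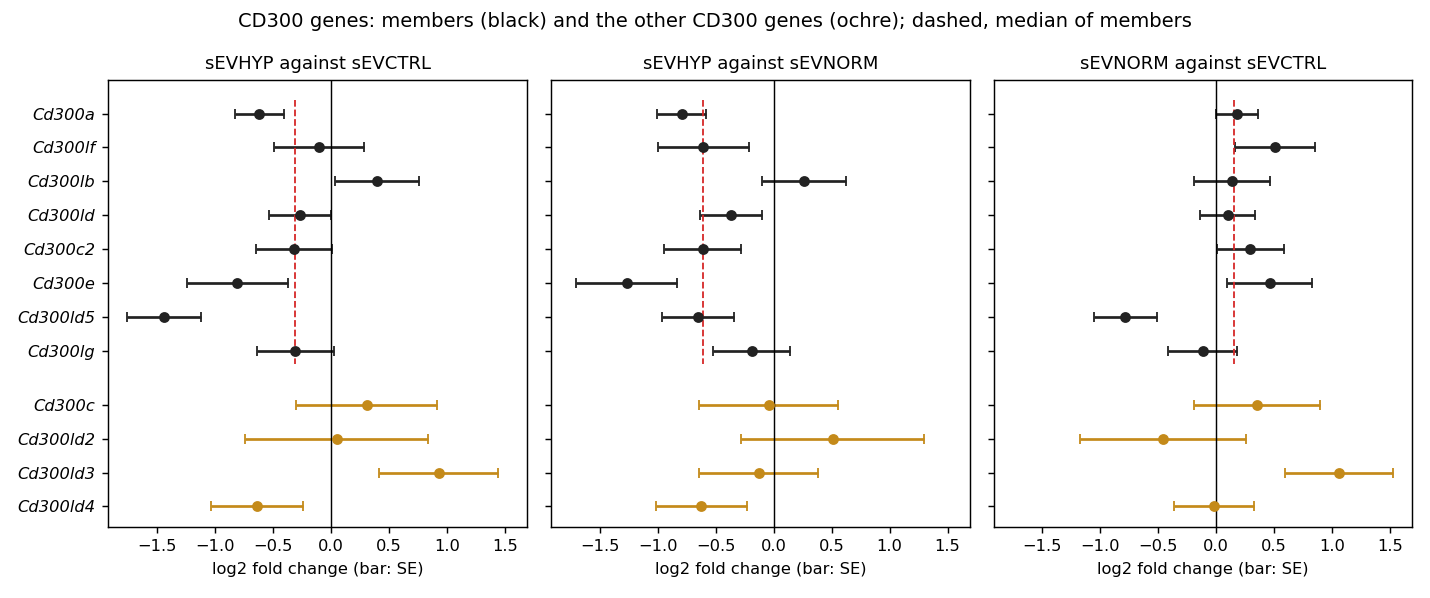
Log2 fold change (points) with SE (bars) of the 8 members in black and the other 4 CD300 genes in ochre, for the 3 comparisons. The dashed line is the median of the members, -0.31, -0.61 and 0.15 from left to right. Cd300ld5 lies lowest on the left and right, Cd300e lies lowest in the middle, and Cd300ld3 lies highest on the left and right.

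The 4 CD300 genes outside the family as chosen went in both directions. Against sEVCTRL with sEVHYP, Cd300ld3 had a log2 fold change of 0.93 (SE 0.51, not past the threshold), Cd300c 0.31, Cd300ld2 0.05 and Cd300ld4 -0.64. With sEVNORM, Cd300ld3 changed by 1.06 (SE 0.47) and passed the threshold by the smallest margin of the 290 genes that did, with groups that overlapped. Over all 12 CD300 genes the median for sEVHYP was -0.29 against sEVCTRL and -0.49 against sEVNORM.

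Relations between members across libraries did not pass adjustment. Of 28 pairs, 22 had a positive r, and 0 passed an adjusted P of 0.05 by exact permutation, with 2 at an unadjusted P under 0.05 by Pearson's r. The highest was that of Cd300a and Cd300e, at r = 0.827 (exact permutation P = 0.00878, adjusted P = 0.246, n = 8) and rho = 0.881 (exact permutation P = 0.00724, adjusted P = 0.203). Without the 2 libraries farthest from the median r was 0.580, and for deviations from the group means it was 0.294. The most negative was that of Cd300lf and Cd300lg, at r = -0.69 (exact permutation P = 0.0626, adjusted P = 0.292, n = 8) and rho = -0.74 (exact permutation P = 0.0458, adjusted P = 0.428). Without the 2 farthest libraries it was -0.60, and for deviations from the group means it was -0.96. Cd300a and Cd300ld had r = 0.706 (exact permutation P = 0.0512, adjusted P = 0.292), or 0.727 without the 2 farthest libraries and 0.863 for deviations.

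Signaling partners of the receptors were not called. Of 10 adapter, kinase and phosphatase genes, 0 passed an unadjusted P of 0.05 in any comparison by edgeR or by DESeq2, and their median log2 fold change for sEVHYP was -0.13 against sEVCTRL and -0.19 against sEVNORM. Tyrobp, the adapter of Cd300lb and Cd300e, had 39.9 to 77.6 CPM with sEVCTRL, 52.1 to 58.1 CPM with sEVNORM, and 56.5 and 39.4 CPM with sEVHYP. Fcer1g, the adapter of Cd300ld, differed by -0.03 (SE 0.21) between sEVHYP and sEVCTRL, and the activating adapter Hcst by -0.06 (SE 0.35). The phosphatases Ptpn6 and Inpp5d, which inhibitory members recruit, differed by -0.43 (SE 0.41) and -0.37 (SE 0.32).

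No other myeloid receptor listed passed the threshold for sEVHYP against sEVCTRL by edgeR or DESeq2. Of 15 genes listed with inhibitory receptors, among which Cd47 is a ligand and Lilra5 an activating receptor, 0 passed in any comparison by edgeR or DESeq2, and their median for sEVHYP was 0.01 against sEVCTRL and -0.22 against sEVNORM. Of 12 activating receptor genes tested, 0 passed for sEVHYP by edgeR, with 1 lower against sEVNORM by DESeq2, and 2 rose with sEVNORM against sEVCTRL. These were the Fc receptor genes Fcgr4, at 0.81 (SE 0.29, past the threshold), and Fcgr1, at 0.52 (SE 0.21, past the threshold). Of 15 scavenger and phosphatidylserine receptor genes tested, 1 fell with sEVHYP against sEVNORM, the phosphatidylserine-sensing kinase Mertk, at -0.85 (SE 0.26, past the threshold). Mertk had 28.7, 37.5 and 32.3 CPM with sEVCTRL, 40.0, 33.0 and 59.7 CPM with sEVNORM, and 22.4 and 26.7 CPM with sEVHYP, so that its sEVHYP libraries, like those of Cd300a, lay below all others. Of 10 genes tested on either side of the CD300 cluster, only Ttyh2 passed, and it was higher with sEVHYP, at 0.78 (SE 0.22) against sEVCTRL and 0.64 (SE 0.22) against sEVNORM.

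Among 17805 genes outside the CD300 family that were tested and compared, those most like Cd300lg in log2 CPM over the 8 libraries were Lpin3 (r = 0.979), Tmbim1 (r = 0.977), Pcsk6 (r = 0.972), Mprip (r = 0.972) and Mindy4 (r = 0.972). Among those most like Cd300a were Sulf1 (r = 0.972), Zfp865 (r = 0.963), Nhlrc3 (r = 0.958) and 4933424M12Rik (r = 0.955), each with both sEVHYP libraries below the rest. These are the top of many correlations over 8 libraries and are given as a description. By Spearman's rho, 2 of the 5 for Cd300lg and 0 of the 4 named for Cd300a were among the first 5 again. By deviations from the group means it was 1 of the 5 for Cd300lg and 0 of the 4 named for Cd300a. Sulf1, Zfp865, Nhlrc3 and 4933424M12Rik then ranked 399, 538, 2040 and 204.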

How the data were processed

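RNA sequencing of 8 whole mammary glands was analyzed. The authors aligned reads with STAR to mm10 (GRCm38) and estimated counts per Ensembl release 89 gene with RSEM 1.2.12. What was deposited is a table of counts, whole numbers that no scaling had been applied to. How the estimates became whole numbers, the read length and the strand setting are not given in the sources used here. Symbols and transcripts came from GENCODE M21 (51596 of 51789 genes), and genes without a symbol held 0.0389% of counts. The protein sequence motifs were not searched.

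Groups and replicate numbers came from the sample titles, which give no batch. The study describes the replicates of this experiment as animals, and the labels do not name the animal of each library. The members and the lists were chosen with earlier results of these data known. A single edgeR 4.0.16 model (R 4.3.3) held the 3 groups. Genes were kept by filterByExpr (minimum 10 counts), libraries scaled by TMM (factors 0.975 to 1.02), and two-sided quasi-likelihood F-tests had 5 residual and 4.08 prior degrees of freedom. P values of the 17858 genes kept were adjusted together by Benjamini-Hochberg. A prior count of 2 was added for log2 CPM. RPKM used the exon length of each gene. Correlations were tested by two-sided exact permutation (scipy 1.17.1), adjusted within each family of relations. No libraries were close enough to be duplicates (chi-square per degree of freedom 26.7 to 99.5).

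The genes named are the CD300 genes, selected adapters and defining markers, the 5 genes most like Cd300a (1 of them is not reported here) and the 5 most like Cd300lg, and up to 3 genes past the threshold in any other list. Alternatives were DESeq2 1.42.0 with every library or with the compared groups alone, its size factors, edgeR with the compared groups alone, other filters, a replicate block, macrophage and endothelium marker levels as covariates, and leaving out each library. Mast cell and neutrophil covariates and sums of Cd300ld genes were added after seeing the data. The procedure was tested on simulated data.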

Additional observations from a re-analysis of the deposited data

How the results depend on the processing

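Limits of these values are the 2 sEVHYP libraries, the low counts of Cd300e and the shared sequence of Cd300ld5. When 1 sEVHYP library is left out, the other is assumed to vary like the remaining groups. Leaving out each library in turn gave 1 to 3 members past the threshold for sEVHYP against sEVCTRL (1, Cd300ld5, without sEVHYP replicate 2) and 0 to 2 for sEVNORM against sEVCTRL (0 without sEVCTRL replicate 3, and Cd300ld5 with Cd300lf without sEVCTRL replicate 1), where 1.92% to 8.32% and 1.26% to 5.75% of all genes passed. For sEVHYP against sEVNORM, where Cd300a led to the choice of the family and nothing is read from the counts, 1 to 2 passed (1 without sEVHYP replicate 2), against 2.21% to 5.57% of all genes. The median of the members then ranged from -0.66 to -0.28 for sEVHYP against sEVCTRL, from -0.91 to -0.36 for sEVHYP against sEVNORM and from 0.06 to 0.31 for sEVNORM against sEVCTRL. With the endothelium marker level as a covariate, the median for sEVHYP against sEVCTRL was -0.56, and 2 members passed for sEVNORM against sEVCTRL (Cd300lg, higher, and Cd300ld5), against 3.51% of all genes. With the macrophage marker level, 0 passed for sEVNORM against sEVCTRL, against 1.89% of all genes. With the mast cell marker level, 2 passed for sEVHYP against sEVCTRL, Cd300ld5 and, higher at 1.06, Cd300lb, but not Cd300a, against 1.66% of all genes. There 1 passed for sEVNORM against sEVCTRL (Cd300ld, lower), with a median of -0.67, and 1 for sEVHYP against sEVNORM (Cd300ld, higher), with a median of 0.25, each against 1.23% of all genes. With the neutrophil marker level, 1 passed for sEVHYP against sEVNORM (Cd300e), with a median of -0.18, against 9.64% of all genes.

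Directions that turned were as follows. For sEVHYP against sEVCTRL, Cd300lg was 0.16 with the endothelium markers and -0.71 to 0.0038 with a library left out, Cd300ld was 0.29 with the mast cell markers, and Cd300lf was 0.12 with the neutrophil markers and -0.58 to 0.25 with a library left out. For sEVNORM against sEVCTRL, the mast cell markers gave -0.34 for Cd300a, -1.50 for Cd300lb, -1.44 for Cd300ld, -0.060 for Cd300c2 and -0.99 for Cd300e. There Cd300lg was 0.37 with the endothelium markers and 0.19 with the neutrophil markers, and Cd300ld was -0.14 with the neutrophil markers. With a library left out, Cd300lg ranged from -0.36 to 0.10, Cd300lb from -0.12 to 0.50 and Cd300ld from -0.023 to 0.31. For sEVHYP against sEVNORM, the mast cell markers gave 0.75 for Cd300e, 0.58 for Cd300ld5 and 1.73 for Cd300ld, the neutrophil markers gave 0.032 for Cd300ld, the replicate block gave 0.0087 for Cd300lg, and with a library left out Cd300lg ranged from -0.59 to 0.12 and Cd300lb from -0.0068 to 0.48. The causes were not tested. No call of Cd300a or Cd300ld5 was lost with the size factors of DESeq2, with DESeq2 or with other filters in the comparisons with sEVCTRL.

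Replicate numbers are shared between groups. Deviations from the group means of same-numbered libraries had correlations from -0.416 to 0.369. Libraries with different numbers were not compared, so these values cannot decide whether the libraries were paired. With the replicate block, 2, 3 and 1 members passed for sEVHYP against sEVCTRL, sEVHYP against sEVNORM and sEVNORM against sEVCTRL, against 2.25%, 4.31% and 1.41% of all genes, with medians of -0.29, -0.67 and 0.18, and the log2 fold change of Cd300a for sEVHYP against sEVCTRL was -0.61.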
